A study of Mus musculus with 4 samples.

Results

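M32 is a mutant line derived by mutagenesis with ENU, an ethylating chemical (N-ethyl-N-nitrosourea) whose lesions mostly give rise to base substitutions, and its transcripts were set against those of the control cells. Both are tumour cells of mouse colon, cultured in RPMI medium. The table of raw read counts holds 1 library of M32 and 1 of control, beside 1 library each of 2 more ENU lines, M8 and M83, whose values are given only to place M32 among them. A gene was described when the higher of the M32 and control libraries held at least 50 counts, which kept 10848 of 41457 rows, and of the 18868 rows with any count in either library. The labels call M8, M32 and M83 ENU mutants without naming a mutated gene. Whether M32 is 1 clone, and whether it came from the same culture as control, is not given. The series describes triplicates, while each line is a single column here, called a library. Whether a column sums repeats is unknown, and the spread between repeats cannot be seen either way, so no test was possible and no p-value is given.

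All values below are counts per library unless a ratio is named. A ratio is M32 over control after each count was divided by its library's total, or control over M32 where a gene is called lower. Its 95% interval is the exact binomial (Clopper-Pearson) interval, which covers counting error only and neither culture nor library variation. A count of 0 allows up to 3 counts, and a ratio against 0 is computed from those 3 counts. The lower end of its interval is given beside it, and the interval has no upper end. A gene was called 2-fold higher or lower when its ratio was at least 2 and the interval left out equality, and 4-fold when the ratio was at least 4 and the interval left out 2.

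Cells make cholesterol by the mevalonate pathway, and a transcription factor of the endoplasmic reticulum, encoded by Srebf2, switches on most of its enzymes together when membrane sterol is low. The ERK kinases, the last step of the growth factor cascade that begins at receptors such as that for EGF, induce short-lived immediate early transcription factors and, with them, phosphatases and other inhibitors that dampen the signal. Serum response factor drives many of the same immediate early genes and, with other partners, the contractile genes of smooth muscle and activated fibroblasts. Mesenchymal cells also secrete a matrix of collagens and of small leucine-rich proteoglycans, which bind collagen fibrils and regulate their assembly. Genes of these groups are described by their roles below.

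The total count was 27312207 in M32, 28879954 in M8, 28011773 in M83 and 25818148 in control, and between 16712 and 17691 genes per library had a count. The colon label was checked against 27 marker genes of intestinal epithelium, of which 3 reached 50 counts in M32 or control. Epcam, Cdx2 and Cdh1, which encode an epithelial adhesion molecule, an intestinal transcription factor and E-cadherin, had 0 counts in M32, and Krt8, a keratin of simple epithelia, had 0 in M32 and 11 in control. Krt20, a keratin of mature intestinal cells, was present with 1008 counts in M32, 3306 in M8, 3667 in M83 and 1914 in control, and was called 2-fold lower in M32 with a ratio of 2.01. Krt7, a keratin found in other ductal epithelia, had 181 counts in M32, 16 in M8, 47 in M83 and 13 in control, 13.2-fold higher in M32 than in control (95% interval 7.51 to 25.2), and it passed the 50 counts through M32 alone. The remaining described marker lay above control with a log2 ratio of 0.40 and no 2-fold call. In millionths of the library's total count, the list summed to 80.8 in M32, 179 in M8, 168 in M83 and 104 in control. Vim, which encodes the mesenchymal filament vimentin, had 129869 counts in M32 and 115473 in control.

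Most markers of leukocytes and endothelium stayed under 50 counts, while more of the fibroblast markers were described. Of 22 leukocyte markers 2 reached 50 counts, Cd8a and Cd14, and the pan-leukocyte gene Ptprc had 2 counts in M32 and 4 in control. Cd8a, a T-cell co-receptor gene, was well above the minimum. It had 4558 counts in M32, 3083 in M8, 5163 in M83 and 4353 in control, without a call in M32. Of 12 endothelial markers 2 were described, with a summed level of 9.19 CPM (millionths of the library's total count) in M32 and 6.62 in control. Of 14 fibroblast markers 8 were described, 1 of them through M32 alone, and 5 were called 2-fold higher in M32, against 5.04% of all genes. The list summed to 4201 CPM in M32, 3559 in M8, 3154 in M83 and 2733 in control. It shares Col3a1 with the collagen genes below, so these results are not separate. Thy1, a fibroblast surface marker, had 0 counts in M32 and in control. Of 13 smooth muscle and pericyte markers 3 were described, and the list summed to 32.5 CPM in M32 and 3.25 in control, while Rgs5, a pericyte gene, was at 0 in both. All 3 described ones passed through M32 alone, and the sum rests mainly on the actin genes Acta2 and Actg2. In bulk RNA, more cells of a type and more RNA per cell cannot be told apart, and the part of either in the results below was not tested.

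Most genes stood close to equality. The median log2 ratio over the 10848 genes was -0.01, with 5316 genes above equality and 5532 below, and 93.8% lay within 2-fold. M32 had 547 genes called 2-fold higher (5.04%) and 128 called 2-fold lower (1.18%), or 675 in either direction (6.22%). The 4-fold rule called 133 higher (1.23%) and 31 lower (0.286%), or 164 in all (1.51%). A gene that reached 50 counts in only 1 of the libraries was bound to lie on that side. This held for 252 of the 2-fold higher genes, which passed through M32 alone, and for 57 of the 2-fold lower ones, which passed through control alone. Among the 4-fold genes it held for 96 of the higher and 21 of the lower. No gene of the cholesterol list and none of the EGF list passed in this way, while 2 of the immediate early genes passed through control alone. Protein-coding genes made up 10451 of the described genes, 126 of the 133 and all 31 of the lower ones. Among the 4-fold genes, 9 higher and 7 lower ones shared over 50% of their 50-base words with other genes and are uncertain, such as RPS10-NUDT3, a readthrough of the ribosomal protein gene Rps10. Reads of overlapping genes on opposite strands may also be mixed, since the strand setting is not known. Among genes named below, the share of exon length so overlapped was 73.5% for Mt2, 67.9% for Tagln, 30.9% for Irs1, 23.4% for Ccnd1, 22.1% for Dusp5 and 18.5% for Tap2, and it is given beside Ctgf, Hoxb3 and Rarb. At the threshold, the 15 genes with exactly 50 counts in the higher library had a median log2 ratio of 0.48 (range -1.92 to 3.56), and the 20 genes just outside, with 49 counts, one of 0.30 (range -0.84 to 3.53).

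**Figure D1:**
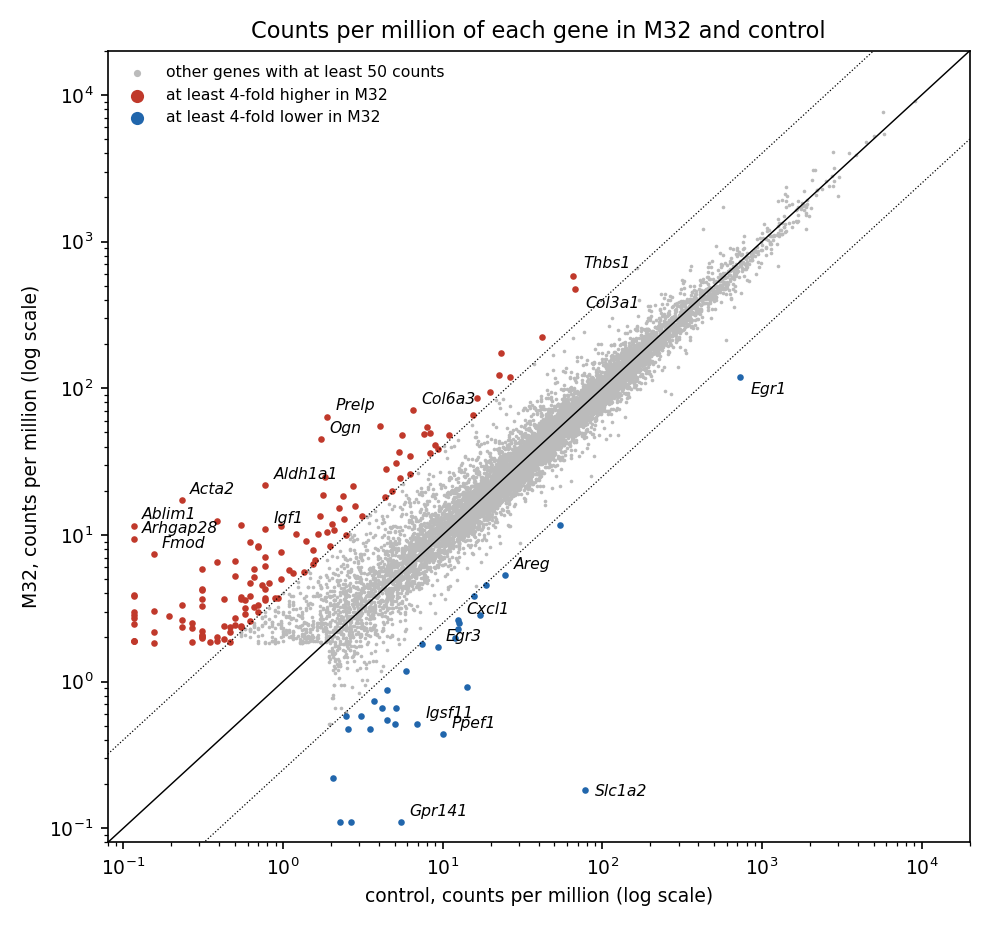
CPM of each of the 10848 described genes, M32 on the vertical and control on the horizontal axis, both logarithmic, with dotted lines at 4-fold and a count of 0 drawn at 3 counts. The 133 genes called 4-fold higher in M32 (red) lie mostly at low control levels, and among the 31 lower genes (blue) Slc1a2 lies furthest below the line of equality.

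The genes furthest above control were led by cytoskeletal and matrix genes that were close to absent in control. Ablim1, which encodes an actin-binding LIM protein, had 316 counts in M32, 26 in M8, 0 in M83 and 0 in control. Its ratio of M32 over control, computed from 3 counts in control, was 99.6 (interval from 80.5 upwards). Arhgap28, a GTPase-activating protein gene, had 256 counts in M32, 32 in M8, 2 in M83 and 2 in control, a ratio of 121 (33.2 to 1004.5). Cmklr1, the chemerin receptor gene, had 78 counts in M32, 23 in M8 and none in M83 or control. Its ratio, computed likewise, was 24.6 (interval from 19.5 upwards). For these genes M32 was the highest of the 4 libraries, with M8 next and M83 close to control.

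Other genes of the top 15 were an exchange factor, receptors and a steroid-metabolising enzyme. Fgd3, which encodes an exchange factor for Cdc42, had 1520 counts in M32, 569 in M8, 63 in M83 and 104 in control, 13.8-fold higher. Akr1c14, a mouse 3-alpha-hydroxysteroid dehydrogenase gene, had 681 counts in M32, 362 in M8, 35 in M83 and 47 in control, 13.7-fold higher (10.2 to 18.8). Gpr149, an orphan receptor gene, had 159 counts in M32, 83 in M8, 14 in M83 and 8 in control. Mrvi1, whose product is a substrate of cGMP-dependent kinase in smooth muscle, had 82 counts in M32, 43 in M8, 56 in M83 and 2 in control. Ramp2, which encodes an accessory protein of the calcitonin receptor-like receptor, had 52 counts in M32, 10 in M8, 36 in M83 and 0 in control, but 30.7% of its words also occur in its neighbour Vps25.

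Cholesterol synthesis was the metabolic pathway with the most calls. Of the 25 described genes of synthesis and uptake, among 28 listed, 23 stood above control and 15 were called 2-fold higher (60%, against 5.04% of all genes), none was called lower, and the median log2 ratio was 1.12. The summed level of the list was 2855 CPM in M32, 2362 in M8, 1130 in M83 and 1405 in control. The M8 and M83 medians against the same control library were 0.64 and -0.28. The other 3 listed genes did not reach 50 counts.

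Along the pathway, the calls ran from its first enzymes to the late sterol reactions. Hmgcs1, the cytosolic HMG-CoA synthase gene, had 4874 counts in M32, 3666 in M8, 1146 in M83 and 1485 in control, 3.10-fold higher in M32 (2.93 to 3.29). Mvd, which encodes mevalonate diphosphate decarboxylase, had 1047 counts in M32, 491 in M8, 227 in M83 and 242 in control, and its ratio of 4.09 (3.55 to 4.72) was the only one of the list past the 4-fold rule. Fdps, which encodes the synthase of farnesyl diphosphate, had 6053 counts in M32, 4249 in M8, 1059 in M83 and 1693 in control, a ratio of 3.38, with 26.2% of its words shared with other annotated loci. M32 held the most counts of all 4 libraries for each of these enzymes, and M83 the fewest. Nsdhl, a sterol dehydrogenase gene of the X chromosome, had 2000 counts in M32, 1027 in M8, 564 in M83 and 594 in control (ratio 3.18). Cyp51, the lanosterol demethylase gene, had 8256 counts in M32, 8094 in M8, 2474 in M83 and 2953 in control (ratio 2.64). Sqle, which encodes squalene epoxidase, had 7246 counts in M32, 6398 in M8, 3176 in M83 and 2834 in control (ratio 2.42). For Cyp51 and Sqle M8 stood close to M32, and Msmo1, a sterol methyl oxidase gene, was higher in M8 (3956) than in M32 (3513), against 1189 in M83 and 1509 in control.

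The regulators of the pathway differed from each other. Insig1, which encodes the protein that holds the sterol sensor in the endoplasmic reticulum and is itself a target of the pathway's factor, had 2278 counts in M32, 1429 in M8, 800 in M83 and 558 in control, 3.86-fold higher (3.52 to 4.24). Insig2, its paralog, had a log2 ratio of 0.00, and Scap, the sensor's own gene, one of -0.14. Srebf2 had 9905 counts in M32, 8457 in M8, 2982 in M83 and 5115 in control, a log2 ratio of 0.87 that fell short of the 2-fold rule. The 6 described genes of sterol efflux and of the oxysterol-sensing LXR receptors and their targets gave no 2-fold call and a median of 0.35.

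The Hmgcs1 promoter is printed because the enzyme stands near the head of the pathway and its gene was the only one of the 20 list genes searched whose window held a sterol element. The letters TCACNCCAC were searched on both strands from 250 bases before to 50 after the RefSeq start of each gene, together with a 10-letter form that has a further A in front and so contains them. The 9-letter form occurred in 1 of 20 list genes with a promoter in the table (5%), in 1.44% of 27025 genes and in 1.35% of those with at least 50 counts. The 10-letter form occurred in 0 of 20 and in 0.27% of all genes. In the sequence, chr13:119690101-119690400 on the plus strand of GRCm38.p6 as given by RefSeq, capitals mark the match, which begins 137 bases before the start.
Hmgcs1: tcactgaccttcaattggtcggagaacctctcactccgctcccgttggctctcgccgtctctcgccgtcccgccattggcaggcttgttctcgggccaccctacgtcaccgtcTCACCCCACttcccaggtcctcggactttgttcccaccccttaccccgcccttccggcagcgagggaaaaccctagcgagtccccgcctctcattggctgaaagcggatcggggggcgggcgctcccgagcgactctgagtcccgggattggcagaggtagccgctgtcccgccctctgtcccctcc

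Fatty acid desaturation genes stood on the same side. Of 18 described genes of fatty acid synthesis 16 were above control, with a median of 0.39. Of the 18, 5 were called 2-fold higher, against 5.04% of all genes, and none lower. Scd2, a stearoyl-CoA desaturase gene, had 46722 counts in M32, 19735 in M8, 11631 in M83 and 14680 in control, 3.01-fold higher (2.95 to 3.07). Fads2 and Fads1, neighbouring desaturase genes for polyunsaturated fatty acids on chromosome 19, had ratios of 2.73 and 2.37. Of 21 described genes of fatty acid oxidation 16 were below control and 2 were called 2-fold lower, against 1.18% of all genes. Acadm, which encodes the dehydrogenase of medium-chain acyl-CoA, had 939 counts in M32, 1178 in M8, 1516 in M83 and 2289 in control, 2.58-fold lower. Ppargc1a, a coactivator gene for mitochondrial genes, had 34 counts in M32, 54 in M8, 34 in M83 and 86 in control, 2.68-fold lower, and passed the minimum through control alone.

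Immediate early genes and ligands of the EGF receptor had the lowest medians and the largest shares of lower calls among lists with at least 5 described genes. Of 22 described immediate early genes 18 were below control, with a median log2 ratio of -0.63. Of the 22, 7 were called 2-fold lower, against 1.18% of all genes, and none higher. Of the 7, 2 were called 4-fold lower, against 0.286% of all genes. Egr2 and Egr3 passed through control alone and were bound to lie lower, and Egr3 is 1 of the 2 genes past 4-fold. Of 10 described genes of EGF receptors and ligands 8 were below control, with a median of -1.0. Of the 10, 5 were called 2-fold lower, against 1.18% of all genes. The medians of the immediate early genes were -0.02 in M8 and -0.11 in M83, and those of the EGF genes 0.10 and 0.17, each against the shared control library.

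Egr1, a zinc-finger transcription factor gene induced within minutes of a stimulus, had 3253 counts in M32, 8137 in M8, 12461 in M83 and 18871 in control, 6.14-fold lower in M32 than in control (5.91 to 6.37). Egr3, of the same family, had 47 counts in M32, 292 in M8, 258 in M83 and 240 in control, 5.40-fold lower (3.94 to 7.55). Fosb, an AP-1 subunit gene, had 690 counts in M32, 3485 in M8, 2070 in M83 and 2207 in control, 3.38-fold lower (3.10 to 3.69). M32 was the lowest of the 4 libraries for all of them. Fos had 240 counts in M32, 871 in M8, 520 in M83 and 587 in control, and Egr2 had 35 in M32, 59 in M8, 41 in M83 and 109 in control. Ier2 and Junb, 2 more genes of the class, were 2.61-fold and 2.19-fold lower. The EGF-like ligands followed with Areg, which encodes amphiregulin, at 146 counts in M32, 685 in M8, 536 in M83 and 637 in control, 4.62-fold lower (3.85 to 5.56). Btc, the betacellulin gene beside Areg on chromosome 5, had 122 counts in M32, 629 in M8, 1004 in M83 and 416 in control, 3.61-fold lower (2.94 to 4.45). Tgfa and Hbegf, 2 further ligand genes, were 2.51-fold and 2.35-fold lower, while the ligand gene Nrg1 stood above control with a log2 ratio of 0.79. Egfr itself had 6 counts in M32 and 7 in control.

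**Figure D2:**
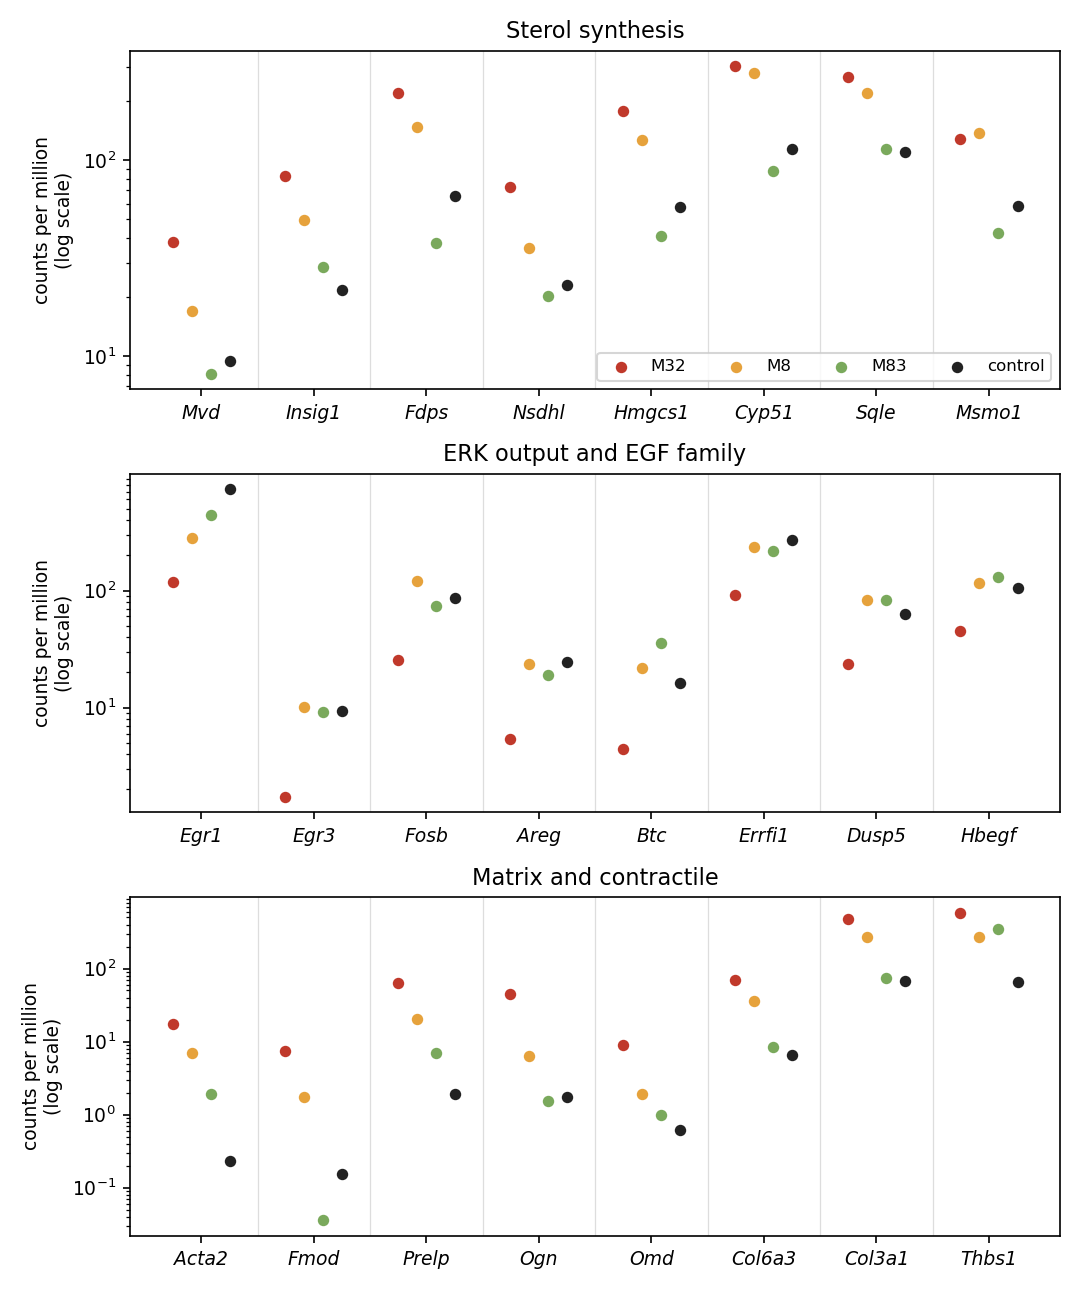
CPM (logarithmic axis) of 8 sterol synthesis genes, 8 ERK and EGF family genes and 8 matrix and contractile genes, with 1 point per library in the order M32, M8, M83 and control. In the middle panel M32 is the lowest point for each gene, and in the lower panel it is the highest.

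Feedback genes of ERK were lower in part. Of 21 described feedback and output genes 16 were below control, with a median of -0.53, against -0.07 in M8 and 0.05 in M83. Of the 21, 2 were called 2-fold lower, against 1.18% of all genes. Dusp5, a nuclear ERK phosphatase gene, had 641 counts in M32, 2398 in M8, 2310 in M83 and 1641 in control, 2.71-fold lower (2.47 to 2.97). Errfi1, which encodes a feedback inhibitor of the EGF receptor and was counted with the EGF genes, had 2514 counts in M32, 6760 in M8, 6092 in M83 and 6964 in control, 2.93-fold lower (2.80 to 3.07). Dusp6, the cytoplasmic ERK phosphatase gene often read as an ERK output, had 2637 counts in M32, 3903 in M8, 4640 in M83 and 3173 in control, a log2 ratio of -0.35. Dusp4, Etv5 and Myc lay near equality at 0.04, 0.01 and -0.13, and Ccnd1, the cyclin D gene downstream of ERK, at -0.88 with 18624 counts in M32 and 32385 in control.

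The Egr2 promoter is printed because this gene was among the 7 immediate early genes called lower and its window held a CArG box, the binding sequence of serum response factor. The box occurred in 3 of 19 immediate early genes with a promoter in the table (Egr2, Srf and Zfp36), in 4 of 25 smooth muscle and contractile genes, and in 1.81% of all 27025 genes. Egr2 was 3.29-fold lower in M32, a side fixed by the count minimum, while Srf and Zfp36 were not among the 7 called lower. Among genes with a promoter in the table, the box occurred in 2.17% of the 2-fold lower and 2.13% of the 2-fold higher ones. The share was 1.45% of those with at least 50 counts. The window is chr10:67537619-67537918, plus strand, GRCm38.p6 as given by RefSeq, and capitals mark the box 72 bases before one of the gene's annotated starts.
Egr2: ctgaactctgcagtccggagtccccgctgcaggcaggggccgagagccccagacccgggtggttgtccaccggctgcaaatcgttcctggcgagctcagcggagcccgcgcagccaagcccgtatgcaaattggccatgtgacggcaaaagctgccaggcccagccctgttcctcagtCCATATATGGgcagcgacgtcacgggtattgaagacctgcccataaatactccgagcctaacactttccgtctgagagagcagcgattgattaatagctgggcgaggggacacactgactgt

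Receptors and ligands of other growth factors were more often higher. Of 15 described genes of PDGF, FGF, HGF and VEGF signalling 13 were above control. Of the 15, 4 were called 2-fold higher (5.04% of all genes) and 1 of them 4-fold (1.23% of all genes). Pdgfrb, the receptor gene of PDGF in fibroblasts and pericytes, had 2341 counts in M32, 1250 in M8, 574 in M83 and 424 in control, 5.22-fold higher (4.70 to 5.80). Fgfr1, an FGF receptor gene, had 1937 counts in M32, 2717 in M8, 2094 in M83 and 873 in control (ratio 2.10), so that M32 was the lowest of the 3 ENU lines here. In the insulin-like growth factor system 8 of 10 described genes were above control and 3 were called 2-fold higher, against 5.04% of all genes. Igf1 had 298 counts in M32, 52 in M8, 8 in M83 and 20 in control, 14.1-fold higher (8.96 to 23.4). It is 1 of the 3 called genes and was described through M32 alone, so the count minimum fixed its side. Igf2r, which clears Igf2 and sorts lysosomal enzymes, had 4008 counts in M32, 5136 in M8, 3079 in M83 and 969 in control (ratio 3.91). Irs1, the insulin receptor substrate gene, had a ratio of 2.08.

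Small leucine-rich proteoglycans had a median log2 ratio of 4.27 over the 6 described of 16 listed genes, and the M8 and M83 medians were 1.74 and 0.25. The 4 genes called 4-fold higher reached 50 counts through M32 alone, so they had to lie above control, and the median is a description only. Prelp, which anchors basement membrane to connective tissue, had 1751 counts in M32, 590 in M8, 196 in M83 and 49 in control, 33.8-fold higher (25.4 to 45.8). Its neighbour on chromosome 1, Fmod, encodes the collagen-binding fibromodulin and had 202 counts in M32, 50 in M8, 1 in M83 and 4 in control, 47.7-fold higher (18.4 to 177). Ogn, the osteoglycin gene, had 1233 counts in M32, 184 in M8, 43 in M83 and 45 in control, 25.9-fold higher (19.2 to 35.7). Beside it on chromosome 13, Omd, the osteomodulin gene, had 244 counts in M32, 55 in M8, 28 in M83 and 16 in control, 14.4-fold higher (8.70 to 25.6). The 4 genes thus form 2 pairs of neighbours, and in each M32 was the highest library. Dcn, the decorin gene, had 48 counts in M32, 13 in M8, 29 in M83 and 2 in control, just under the 50 counts set for description. Bgn and Podnl1 were described without a 2-fold call, and Kera, Epyc and Podn had 0 counts in M32 and control.

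Collagen genes shared this direction. Of 18 described chains, 3 of them described through M32 alone, 17 were above control. The median was 1.11, against 1.06 in M8 and 0.57 in M83. Of the 18, 9 were called 2-fold higher, against 5.04% of all genes, and 5 4-fold higher, against 1.23%. Col3a1, a fibrillar collagen of elastic tissues, had 12998 counts in M32, 7748 in M8, 2047 in M83 and 1748 in control, 7.03-fold higher (6.69 to 7.39). Col6a3, of the beaded filament collagen, had 1927 counts in M32, 1042 in M8, 239 in M83 and 168 in control, 10.8-fold higher (9.26 to 12.8). Its partner chains Col6a2 and Col6a1, neighbours on chromosome 10, were 5.52-fold and 3.56-fold higher. Col1a1 had 33405 counts in M32, 25288 in M8, 32552 in M83 and 10970 in control (ratio 2.88), and thus stood at a like level in M32 and M83. Col1a2, its partner chain, had 51697 counts in M32 and 43464 in control and no call. Of 22 described genes of collagen processing and elastic fibres, 1 of them described through M32 alone, 5 were called 2-fold higher, against 5.04% of all genes. They were led by Fbln5, the fibulin gene needed for elastic fibres. It had 4718 counts in M32, 1519 in M8, 4190 in M83 and 599 in control (ratio 7.45).

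Matricellular proteins, secreted factors that signal from the matrix, were called in both directions. Of 12 described genes 6 were called 2-fold higher, against 5.04% of all genes, and 2 lower, against 1.18%. The side was fixed by the count minimum for 3 of the higher ones, Wisp1, Wisp2 and Spon2, and for Tnc among the lower. Thbs1, the thrombospondin gene, had 15903 counts in M32, 7757 in M8, 9884 in M83 and 1683 in control, 8.93-fold higher (8.49 to 9.40). Wisp2 and Wisp1, of the CCN family, had ratios of 13.8 and 7.93, and Ctgf, a gene of the same family and a YAP target, one of 2.31 with 23.2% of its exon length overlapped by a gene on the other strand. Spp1, which encodes osteopontin, had 5833 counts in M32, 16701 in M8, 8482 in M83 and 15381 in control, 2.79-fold lower (2.71 to 2.88). Tnc, the tenascin C gene, had 49 counts in M32, 602 in M8, 706 in M83 and 138 in control, 2.98-fold lower (2.14 to 4.22), and so lay below control in M32 and above it in the other lines.

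Smooth muscle genes stood mildly above control, with a few at very high ratios. Of 22 described contractile genes, 4 of them described through M32 alone, 21 were above control and the median log2 ratio was 0.47. Of the 22, 4 were called 2-fold higher, against 5.04% of all genes. Among these, Ablim1, Acta2 and Actg2 were described through M32 alone, so the count minimum fixed their side. Only Sorbs3 was called without this limit, with a ratio of 2.25, and the share is thus a description only. Acta2, the smooth muscle actin gene that marks activated fibroblasts, had 474 counts in M32, 199 in M8, 53 in M83 and 6 in control, 74.7-fold higher (34.1 to 205). Actg2, the enteric smooth muscle actin gene, had 318 counts in M32, 348 in M8, 16 in M83 and 14 in control, 21.5-fold higher (12.6 to 39.7). Tagln, another smooth muscle gene, stayed low with 19 counts in M32 and 6 in control, and Cnn1, the calponin gene, had 0 in M32 and 2 in control. Among integrin and laminin chains, Itgb4, a hemidesmosome subunit gene, had 713 counts in M32, 897 in M8, 218 in M83 and 162 in control (ratio 4.16). Of 16 described genes of these chains, 1 of them described through M32 alone, 2 were called 2-fold higher, against 5.04% of all genes.

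**Figure D3:**
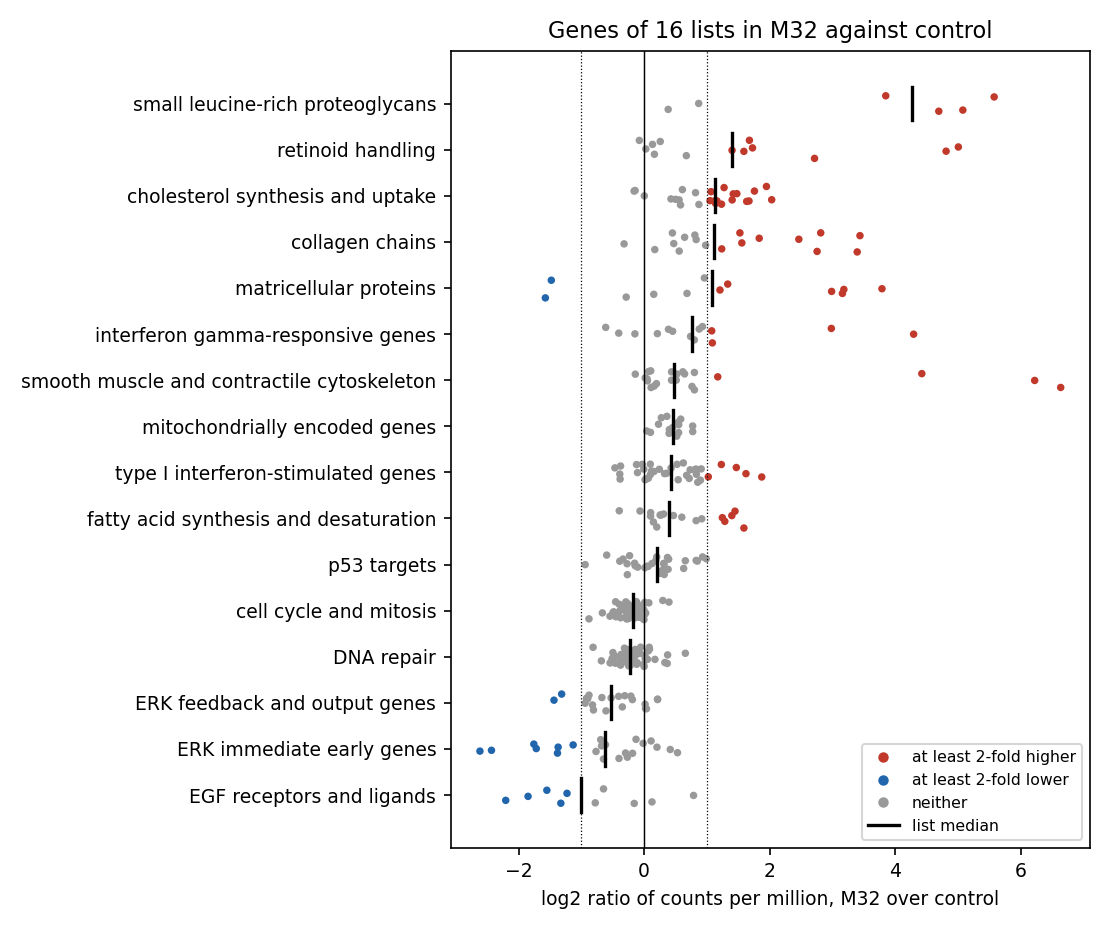
Log2 ratio of M32 over control for the described genes of 16 lists, 1 point per gene, with the list median as a black bar and dotted lines at 2-fold. Proteoglycans have the highest median at 4.27 and EGF receptors and ligands the lowest at -1.0.

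Retinoid genes were called in only 1 direction. Of 13 described genes, 5 of them described through M32 alone, 12 were above control. The median was 1.40, against 0.95 in M8 and 1.33 in M83. Of the 13, 7 were called 2-fold higher, against 5.04% of all genes, and 3 4-fold higher, against 1.23%. The 7 include all 5 genes described through M32 alone, which are Aldh1a1, Aldh1a7, Crabp2, Dhrs3 and Rarb. The count minimum fixed the side of these 5, and all 3 genes past 4-fold are among them. The shares are thus a description only. Aldh1a1, a retinaldehyde dehydrogenase gene that makes retinoic acid, had 594 counts in M32, 539 in M8, 210 in M83 and 20 in control, 28.1-fold higher (18.0 to 46.3). Aldh1a7, its rodent neighbour on chromosome 19, had 340 counts in M32, 281 in M8, 104 in M83 and 10 in control, 32.1-fold higher (17.3 to 67.6), and shares 7.5% of its words with other genes. Crabp2, a retinoic acid carrier gene, had 250 counts in M32, 175 in M8, 254 in M83 and 36 in control, 6.56-fold higher (4.62 to 9.59). Cyp26b1, whose product degrades retinoic acid, had a ratio of 3.20. The receptor gene Rarb, whose exons are overlapped over 38.4% of their length on the other strand, had one of 3.31. Retinoic acid is known to induce both, but its part in these values was not tested. M8 and M83 were also above control for each gene named here.

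Interferon-responsive genes were modestly above control. Of 37 described type I interferon-stimulated genes, 3 of them described through M32 alone, 29 were above control. The median was 0.43, against -2.08 in M8 and 0.83 in M83. Of the 37, 5 were called 2-fold higher, against 5.04% of all genes. Ifi44 had 407 counts in M32, 14 in M8, 265 in M83 and 125 in control (ratio 3.08), and Parp14, an ADP-ribosyltransferase gene, had 240 in M32, 16 in M8, 234 in M83 and 82 in control (ratio 2.77). M32 and M83 thus stood above control for these genes and M8 below it. Of 14 described interferon gamma-responsive genes, 4 of them described through M32 alone, 11 were above control, with a median of 0.77. Of the 14, 4 were called 2-fold higher, against 5.04% of all genes. Iigp1, an immunity-related GTPase gene, had 83 counts in M32, 4 in M8, 10 in M83 and 4 in control, 19.6-fold higher (7.38 to 73.7). Tgtp2, of the same family, had 209 counts in M32, 28 in M8, 95 in M83 and 25 in control (ratio 7.90), but 86.6% of its words also occur in Tgtp1 and another copy, so reads cannot be assigned firmly. Iigp1 and Tgtp2 reached 50 counts through M32 alone and so had to lie above control. In antigen presentation, 2 of 21 described genes were called higher, against 5.04% of all genes, the peptide transporter gene Tap2 (ratio 2.28) and its neighbour Psmb8, an immunoproteasome subunit gene (ratio 2.30). Cd274, the checkpoint ligand gene, stayed under 50 counts with 29 in M32 and 41 in control.

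Cytokine genes differed in direction. Cxcl1, a neutrophil-attracting chemokine gene, had 72 counts in M32, 253 in M8, 280 in M83 and 324 in control, 4.76-fold lower (3.68 to 6.23). Il1rl1, which encodes the receptor for interleukin-33, had 6592 counts in M32, 8827 in M8, 11965 in M83 and 1986 in control (ratio 3.14). Of 20 described genes of NF-kB and its targets 1 was called, close to the 6.22% of all genes. It was Bcl3, an atypical member of the IkB family, which was 2.43-fold lower and passed the minimum through control alone.

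Slc1a2, a gene for glutamate uptake across the plasma membrane, was the gene furthest below control. It had 5 counts in M32, 10 in M8, 12 in M83 and 2002 in control, 424-fold lower in M32 (181 to 1306), and spans positions 102658659 to 102790784 of chromosome 2. The 3 ENU lines were alike in this. Gpr141, an orphan receptor gene, had 0 counts in M32, 133 in M8, 4 in M83 and 142 in control. Computed from 3 counts in M32, it was 50.1-fold lower there (interval from 40.2 upwards). Ppef1, a calcium-binding phosphatase gene on chromosome X, had 12 counts in M32, 6 in M8, 6 in M83 and 259 in control, 22.8-fold lower (12.8 to 44.8). Igsf11, an adhesion molecule gene, had 14 counts in M32, 94 in M8, 122 in M83 and 179 in control, 13.5-fold lower (7.85 to 25.2). Its value thus differed most from control in M32, whereas for Ppef1 all 3 lines were near the floor. Adam8, a metalloprotease gene, had 62 counts in M32, 82 in M8, 60 in M83 and 322 in control, 5.49-fold lower. Pik3r5, a regulatory subunit gene of PI3-kinase gamma, had 13 counts in M32, 153 in M8, 68 in M83 and 91 in control, and Clstn3, a synaptic adhesion gene, had 54 in M32, 554 in M8, 494 in M83 and 309 in control. Among lower genes chosen after their values were seen, Tnfrsf9, the co-stimulatory receptor gene also called 4-1BB, had 20 counts in M32, 316 in M8, 303 in M83 and 96 in control. Sox9, an intestinal and mesenchymal transcription factor gene chosen likewise, had 80 counts in M32, 433 in M8, 774 in M83 and 231 in control, 3.05-fold lower.

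Guidance genes were called mostly higher. Of 30 described guidance genes, 1 of them described through M32 alone, 7 were called 2-fold higher, against 5.04% of all genes, and 1 lower, against 1.18%. Tenm4, a teneurin gene, had 586 counts in M32, 475 in M8, 872 in M83 and 71 in control (ratio 7.80), and Slit3, a secreted repellent gene, had 4584 in M32, 3926 in M8, 1777 in M83 and 1261 in control (ratio 3.44). Sema6d, a transmembrane semaphorin gene, had 63 counts in M32, 507 in M8, 195 in M83 and 187 in control, 3.14-fold lower. Of 15 described Hox genes, 5 of them described through M32 alone, 14 were above control with a median of 0.69. Of the 15, 3 were called 2-fold higher, against 5.04% of all genes. They included Hoxb3, whose exons are overlapped over 52.9% of their length by genes on the other strand.

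Genes of proliferation and DNA repair held no 2-fold call, against 6.22% of all genes called in either direction. Of 56 cell cycle genes 50 were below control with a median of -0.19, which was -0.32 in M8 and -0.24 in M83, and Mki67, a proliferation marker, had 8200 counts in M32, 5339 in M8, 8746 in M83 and 12301 in control. Of 55 described DNA repair genes 44 were below control with a median of -0.22. The 31 described p53 targets had a median of 0.20 and the 22 colorectal cancer drivers and other fixed genes one of -0.01, again with no call. The 33 genes of the unfolded protein and integrated stress responses had a median of 0.20 and 1 call, Trib3, a stress-induced pseudokinase gene with a ratio of 2.07. Heat shock genes also held 1 call, Cryab, a small heat shock protein gene with 1313 counts in M32, 1475 in M8, 1898 in M83 and 285 in control (ratio 4.35). Of 29 described genes of the TGF-beta family pathway 3 were called 2-fold higher with a median of 0.10, against 5.04% of all genes. Of 17 Wnt genes, 1 of them described through M32 alone, 2 were called higher with a median of 0.43, against the same share. The 15 mitochondrially encoded genes were all above control without a call, with a median of 0.45, and took 3.10% of counts in M32, 1.27% in M8, 2.50% in M83 and 2.36% in control.

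Some called genes were neighbours. Ordered along the chromosomes, 54 runs of 2 or more adjacent described genes carried the same 2-fold call, 48 of them higher and 6 lower, with 125 genes in all, or 18.5% of the 675 called. The longest, of 8 genes on chromosome 11, held interferon-inducible GTPase genes from Irgm1 to Ifi47, several of which share sequence. A run of 5 protocadherin beta genes lay on chromosome 18. Lower runs included the metallothionein genes Mt2 and Mt1, which bind zinc and copper, and the endothelial selectin genes Sele and Selp. Mt1 had 1310 counts in M32, 4428 in M8, 2041 in M83 and 2892 in control.

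Chromosome 6 had the lowest median of the chromosomes. Of its 513 described genes 373 were below control (72.7%), with a median log2 ratio of -0.24, against medians of -0.05 in M8 and 0.11 in M83. It was lower from 70 Mb onwards, where 273 of 339 genes were below control (80.5%) with a median of -0.34, against -0.02 in M8 and 0.12 in M83, and where 2.70% of all counts fell in M32 and 3.45% in control. Below 70 Mb, 100 of 174 genes were below control with a median of -0.06, though from 20 to 30 Mb 20 of 21 genes were below control with a median of -0.29, against -0.39 in M8 and -0.20 in M83. The boundary at 70 Mb was chosen after the values were seen. Within windows of 25 adjacent genes, of which 10349 were read, the lowest median was -0.56, on chromosome 6 between Eps8 and Stk38l, and that window held no 2-fold call in either direction. The medians of chromosomes 1, 15, 17 and 19 were 0.13, 0.12, 0.16 and 0.14, and those of the remaining nuclear chromosomes other than Y, with 1 gene, lay between -0.07 and 0.00. On these chromosomes M8 had like medians, at 0.18, 0.17, 0.17 and 0.19, while M83 had -0.04, -0.16, 0.22 and 0.06, each against the same control library. The part of DNA copy number in these values was not tested.

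**Figure D4:**
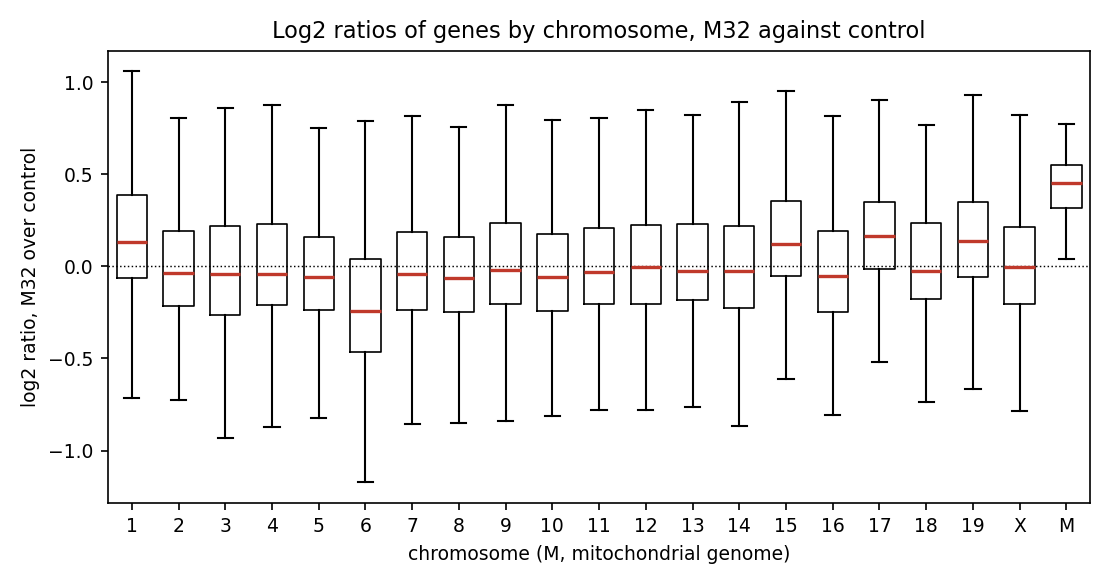
Log2 ratios of M32 over control by chromosome, with the median in red, boxes from the lower to the upper quartile and whiskers to the furthest gene within 1.5 box lengths. Chromosome 6 has the lowest median at -0.24 and the mitochondrial genome (M) the highest at 0.45.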

How the data were processed

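Poly(A)-selected RNA was made into libraries with NEBNext kits and read on a NextSeq instrument, per the labels' protocols and the series text. Counts were deposited raw, as whole numbers per gene with no normalisation, and rest on GRCm38 per the submitters' processing notes. For aligner, counter, annotation and strand setting, nothing is given in the sources at hand, so overlapping antisense genes cannot be told apart.

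Counts were divided by library totals with Python 3.11.15, pandas 2.3.3 and scipy 1.17.1, and TMM factors (edgeR 4.0.16) and size factors (DESeq2 1.42.0, R 4.3.3) served as scaling alternatives only. Positions came from GENCODE vM21, which held 41434 of 41457 identifiers. The 47 gene lists, 6 of them cell type markers, and the M32 comparison were chosen with earlier results of these data known. The naming rule took the 15 genes per direction whose interval lay furthest from equality, passing over provisional symbols such as Gm49392, up to 8 called members per list, fixed genes, markers and neighbours, and not all named genes or lists are printed, as some items are not reported here. Genes printed beyond it, such as list members without a call or past the 8, were chosen after their values were seen. On simulated counts for 10701 genes, the 2-fold rule recovered 200 of 200 genes changed 4-fold or 8-fold, with 0 false calls, and 94.3% of the intervals held the true ratio. The simulated counts held counting error only, which is the error that the interval assumes. No change below 4-fold was simulated, and the changed genes were drawn from those with higher counts. The simulation thus checks the computation and says nothing of variation between cultures or libraries.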

Additional observations from a re-analysis of the deposited data

Results flagged for a closer look

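Among the genes taken by the naming rule, neighbours aside, some stood on opposite sides of the shared control library in M32 and another ENU line. Each was past 2-fold with an interval that left out equality. Other genes were not searched in this way. Of those printed above, Tnfrsf9 (log2 ratio -2.34 in M32, 1.56 in M8 and 1.54 in M83) and Sox9 (-1.61 in M32 and 1.63 in M83) also lay on opposite sides. With 1 library per line, none of these differences was tested. Below control in M32 and above it elsewhere were Btc (log2 ratio -1.85 in M32 and 1.15 in M83), Tnc (-1.57 in M32, 1.96 in M8 and 2.24 in M83), Aldh3a1, an aldehyde dehydrogenase gene (-1.46 in M32 and 2.36 in M83), and Sema6d (-1.65 in M32 and 1.28 in M8). The interferon-responsive genes were above control in M32 and below it in M8, with log2 ratios of 1.62 and -3.32 for Ifi44, 1.47 and -2.52 for Parp14, 1.23 and -3.47 for the nucleotide kinase gene Cmpk2, 1.02 and -3.16 for the deubiquitinase-like gene Usp18, and 1.20 and -1.84 for Psmb8. Above control in M32 and below it in M83 were Car12, a carbonic anhydrase gene (1.06 in M32 and -1.14 in M83), and Serpinf1, which encodes an antiangiogenic serpin (2.27 in M32 and -1.44 in M83).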

How the results depend on the processing

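The numbers of called genes depended on the count minimum. With at least 20 counts in the higher library, 825 genes were called 2-fold higher, 233 2-fold lower, 235 4-fold higher and 50 4-fold lower, and without a minimum the numbers were 1154, 449, 279 and 62. This follows from admitting genes with fewer counts. The other 24 recomputed counts, under TMM scaling, DESeq2 size factors, other totals, a prior count of 2, a minimum of 100 or fold alone without the interval, stayed within 1.5 times. Fold alone gave the same 547, 128, 133 and 31 genes. With at least 50 counts, the interval condition thus removed no gene from the calls. Of 252 recomputed list medians 21 moved by over 0.1, of 788 recomputed gene values 15 moved beyond their interval, and of 126 chromosome medians none moved by over 0.1. No list median and no called gene changed sign, while the medians of chromosomes 12 and X, at 0.00, crossed to 0.01 when mitochondrial and the 20 most abundant genes were left out of the totals. No paired analysis was possible because each line has 1 library. With 1 library each, differences between cultures, passages or library preparations cannot be told apart from those of the line. Genes near 50 counts have wide intervals.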
